A study of Mus musculus with 4 samples.

Results

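The nuclear oxidative phosphorylation genes are the genes of the cell nucleus that encode proteins of the 5 enzyme complexes of mitochondrial ATP production. They were taken as the protein-coding rows of the deposited gene table whose symbols start with Nduf, Uqcr, Atp5 or Cox4 to Cox8, or are Sdha, Sdhb, Sdhc, Sdhd or Cyc1. The rule found 93 genes of 42977 in the table, of which 22633 are protein-coding. By symbol, 36 belong to complex I, 4 to complex II, 9 to complex III, 20 to complex IV and 15 to complex V. The remaining 9 share the name stems but are not subunits, namely the assembly factors Ndufaf1 to Ndufaf7 and the genes Atp5s and Atp5sl.

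RNA was sequenced from exosomes, small vesicles released into the medium, of mesenchymal stem cells (MSCs). The cells were grown from the bone marrow of male SD rats aged 6 to 8 weeks and used at passages 3 to 4. Vesicles of 2 libraries, named MSC-Exo, are from cells that received only DMSO, the solvent. Those of the other 2, named MSCATV-Exo, are from cells that received ATV (atorvastatin) at 1 µmol/L, a statin that blocks an early enzyme of cholesterol synthesis. How long they received it is uncertain, as 24 h and 48 h both appear in the labels. Below, "with DMSO" and "with ATV" stand for these groups, and values of 4 libraries are given as MSC-Exo replicates 1, 2 and MSCATV-Exo replicates 1, 2. Vesicles were collected from 10 dishes of 15 cm in exosome-free medium, and the labels describe both ultracentrifugation and a precipitation reagent applied to 200 ml of medium. They register the samples as mouse, while the growth protocol and the genome build (rn6) are rat, and the values below are of rat genes. No separate animals or cultures are named behind the libraries of a group. The standard deviations, standard errors and p-values computed here thus cover the spread between these libraries, which may be technical. The authors' deposited p-values and q-values are of an unstated test, and whether they cover that spread is not known.

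Oxidative phosphorylation passes electrons from NADH and succinate along complexes I to IV to oxygen and uses the resulting proton gradient to drive ATP synthase, complex V. Complex I (NADH dehydrogenase) and complex II (succinate dehydrogenase) feed electrons to ubiquinone, complex III passes them to cytochrome c, and complex IV (cytochrome c oxidase) reduces oxygen. Most subunits are encoded in the nucleus and imported, and complexes I, III, IV and V also contain subunits encoded by mitochondrial DNA. The protein-coding genes of mitochondrial DNA were not analysed here. The nuclear genes are expressed in nearly every tissue, while several complex IV subunits have isoforms restricted to muscle, testis or other states.

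The gene table held 5350295 to 5947020 counts per library, of which the 93 members together took 4292 and 4582 with DMSO against 4925 and 4940 with ATV. These are 0.0802%, 0.0856%, 0.0828% and 0.0882% of all gene counts. The median member had 35 to 44 counts in a library, and 86 members had at least 1 count in all 4 libraries. Olfactory receptor genes, a class that stromal cells do not use, had a median of 2.72 RPKM (reads scaled by gene length and by the library's total of gene counts) over 1189 genes, and 3 times this level (8.17 RPKM) was taken as the level above which a member was counted as above that class. Of the olfactory receptor genes themselves, 43 also exceeded it. Of the 11 MSC marker genes, 5 had a mean above 8.17 RPKM, among them Sparc at 212, Itgb1 at 31.2 and Thy1 at 20.3 RPKM. The other MSC markers lay lower, with Eng at 7.52, Pdgfrb at 6.02, Nt5e at 4.09, Cd44 at 3.53, Lepr at 2.36 RPKM (under the olfactory receptor median) and Col1a2 at 0 in all 4 libraries. Of the 5 vesicle markers only Cd63, at a mean of 17.5 RPKM, exceeded 8.17 RPKM, and the others ranged from 3.60 (Cd9) to 7.97 RPKM (Tsg101).

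As a group the members were detected at a low level that lay above the olfactory receptor class in every library. Their median was 7.24 and 7.84 RPKM with DMSO against 7.48 and 9.12 RPKM with ATV. The median of all protein-coding genes was 4.74, 4.70, 4.12 and 4.54 RPKM in the same order, and that of the olfactory receptor genes 2.48, 2.36, 1.71 and 2.28 RPKM. The members' median was thus 1.53 to 2.01 times that of protein-coding genes and 2.92 to 4.38 times that of olfactory receptor genes. A mean above 8.17 RPKM was reached by 51 of 93 members (54.8%), against 13.3% of all protein-coding genes. Just inside that level stood Ndufv3 at a mean of 8.22 RPKM, and just outside stood Ndufc2 at 8.13 RPKM. At the lower end, 9 members had a mean under the olfactory receptor median. The 76 mitochondrial ribosomal protein genes, which are also encoded in the nucleus and imported, had medians of 5.67 to 5.85 RPKM over the 4 libraries, lower than the members' median in each library.

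Members are short genes, and RPKM of short genes rests on few counts. Their median length is 762 nt against 2431 nt for all protein-coding genes and 942 nt for the olfactory receptor genes, and 56 of 93 are under 1000 nt. Over the 93 members, the mean RPKM and the length had a Spearman correlation of -0.33, given as a description since both share the length. Members lie on 19 chromosomes, with 14 on chromosome 1 and 3 on X.

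Among the complexes, complex V stood highest in 3 of the 4 libraries. Its median was 9.88, 19.9, 17.1 and 13.3 RPKM over the 4 libraries, and 13 of its 15 genes had a mean above 8.17 RPKM. In MSC-Exo replicate 1 complex IV had a median of 9.95 RPKM, just above complex V. The other complexes lay close together and changed order between libraries: complex I at 6.96, 7.87, 7.23 and 8.86 RPKM, complex II at 5.39, 8.11, 9.85 and 7.91, complex III at 7.80, 6.67, 7.73 and 9.72, and complex IV at 9.95, 7.14, 7.21 and 9.12. Above 8.17 RPKM were 20 of 36 genes of complex I, 2 of 4 of complex II, 5 of 9 of complex III and 10 of 20 of complex IV. The 9 genes that are not subunits were lower, with medians of 3.26, 2.99, 2.85 and 4.79 RPKM and 1 of 9 above 8.17 RPKM. The order of complexes I to IV thus differed between libraries of the same group.

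**Figure D1:**
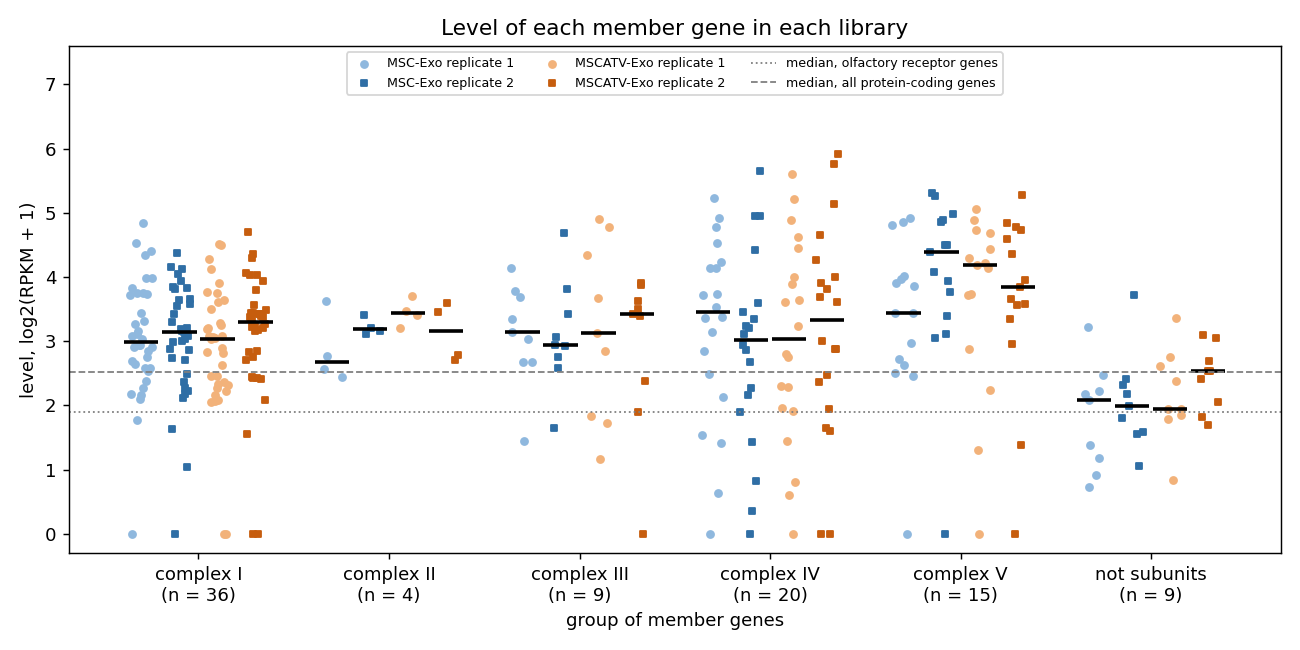
Level of each of the 93 members, as log2(RPKM + 1), in each of the 4 libraries, grouped by complex; black bars are the medians of a group in a library, and the dotted and dashed lines are the medians of olfactory receptor and all protein-coding genes. Complex V has the highest median in 3 libraries, and the 9 genes that are not subunits lie nearest to the lower lines.

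In the comparison of MSCATV-Exo with MSC-Exo, no member passed the test. With edgeR's quasi-likelihood test and Benjamini-Hochberg adjustment over 33480 genes, 0 of 87 tested members and 0 genes of the whole table (0%) had an adjusted p under 0.05, and the smallest adjusted p among members was 1.00. At an unadjusted p under 0.05 there was 1 member, Cox7c, against 3.69% of all genes tested. DESeq2 called 0 members against 0.317% of all genes, with a smallest member adjusted p of 0.157, again for Cox7c. Beyond counting error, the coefficient of variation between libraries that edgeR estimated over all tested genes was 0.559, a wide spread. The other 6 members were too low to be tested: Atp5f1, Cox7a2l2 and Ndufa1 were at 0 in all 4 libraries, and Cox7b2, Ndufaf2 and Uqcr10 had at most 16 counts in any library. RNA of these libraries is a bulk of vesicles, so fewer vesicles carrying a transcript and less of it per vesicle cannot be told apart.

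The members' log2 fold changes (MSCATV-Exo over MSC-Exo, here and below) lay on both sides of 0. Of 87, 50 were above and 37 below 0, with a median of 0.12, while over all genes tested 49.4% were above 0 and the median was -0.01. With library totals in place of TMM factors the members' median was 0.003 with 44 of 87 above 0, and that of all genes -0.11. Over members above 8.17 RPKM alone, refitted, 25 of 51 were above 0, with a median of -0.04, and without MSC-Exo replicate 2 the median over 89 tested members was 0.36. The 4 libraries of 32 members (36.8%) did not overlap between groups, against 33.5% of all genes tested. MSCATV-Exo was higher in 20 of the 87 (background 5394 of 33480, 16.1%) and lower in 12 of the 87 (background 5830 of 33480, 17.4%). The share of both directions together is near the background and is no result about the members. The split by direction was not tested. Fitted log2 fold changes were above 1 for 14 of the 87 members (16.1%, against 8.67% of all genes tested) and below -1 for 4 (4.60%, against 10.4%). With library totals these counts were 11 above 1 (background 7.28%) and 7 below -1 (background 12.1%). None of these members passed the test under either scaling.

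By complex, the medians of the log2 fold changes were small. Complex I had 17 members above and 18 below 0 with a median of -0.01, and complex IV had 10 above and 8 below with a median of 0.07. Complex V had 7 on each side with a median of 0.01. Complex III had 5 above and 3 below with a median of 0.31, and all 4 genes of complex II were above 0 with a median of 0.30. The genes that are not subunits had 7 above and 1 below with a median of 0.66. These medians depended on single libraries. Without MSCATV-Exo replicate 1, complex II had a median of -0.02 with 2 of 4 above 0, complex III -0.01, and complex I 0.18. Without MSCATV-Exo replicate 2, complex IV had a median of -0.22 and the genes that are not subunits 0.09, and without MSC-Exo replicate 2 complex V had a median of 0.56 and complex IV 0.36.

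**Figure D2:**
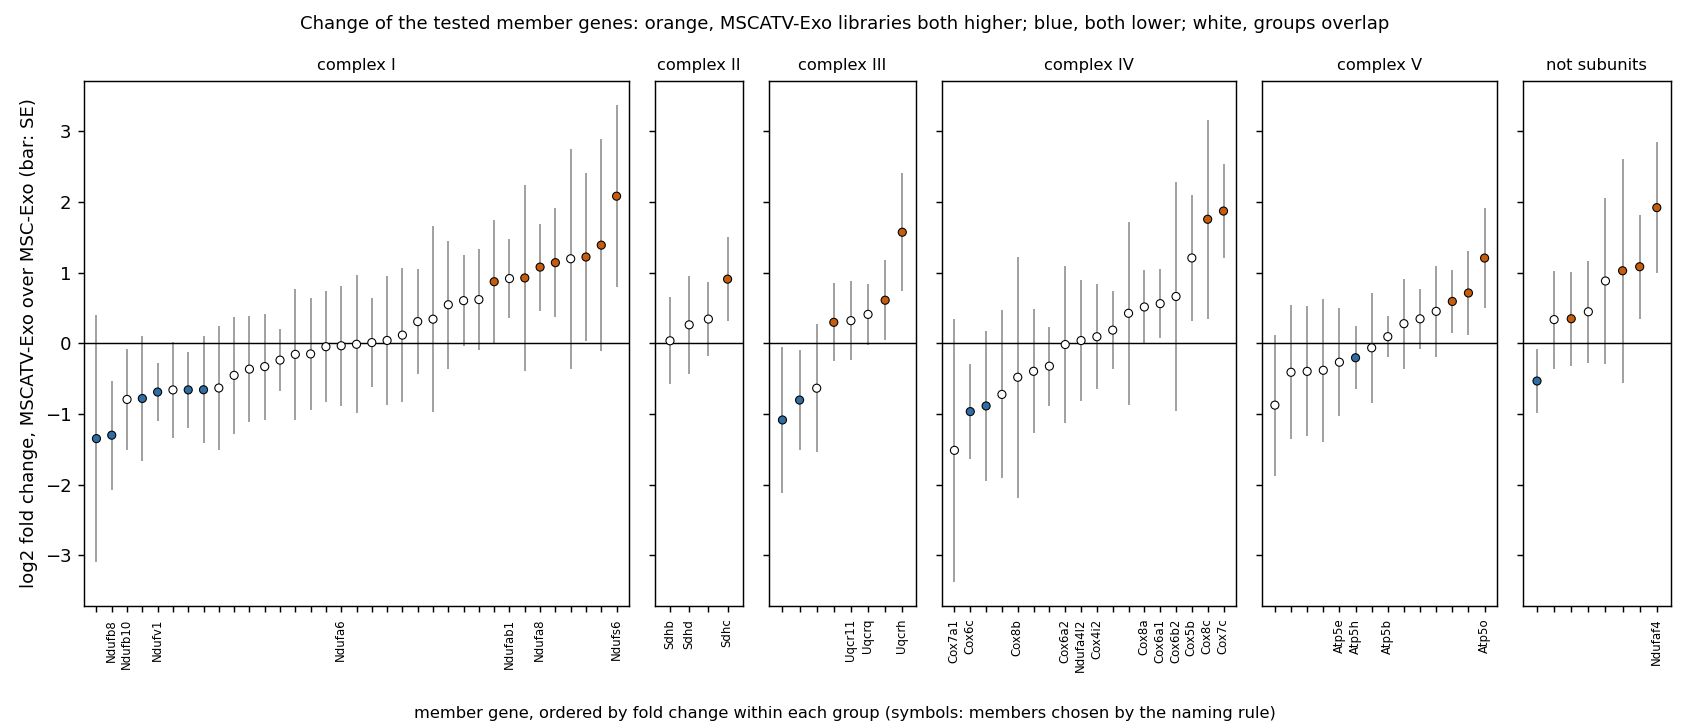
Log2 fold change (MSCATV-Exo over MSC-Exo) of the 87 tested members with its standard error as a bar, by complex and ordered by size, with the symbols of members chosen by the naming rule; in orange points both libraries with ATV lie above those with DMSO, in blue points both below, in white points the groups overlap. Points spread on both sides of 0 in complexes I, III, IV and V, and most bars reach 0.

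Complex I oxidises NADH, and 7 of its nuclear genes encode the core subunits that carry the electron path. The core genes had 2 members above and 5 below 0, with a median of -0.15, and the supernumerary subunits, which surround the core, had 15 above and 13 below with a median of 0.08. Ndufv1, the core subunit that binds NADH and FMN (chromosome 1, 219254293 to 219259328), had 28.6 and 23.6 CPM (counts made comparable between libraries through edgeR's TMM factors) with DMSO against 18.0 and 14.4 CPM with ATV. Both MSCATV-Exo libraries lay below both MSC-Exo libraries, and the log2 fold change was -0.69 with an SE of 0.41 (unadjusted p = 0.120 from edgeR's fit across all genes). Ndufv2, its partner in the NADH-oxidising arm, had 4.29 and 5.81 CPM against 2.91 and 7.09 CPM, so the groups overlapped around it.

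Among the supernumerary subunits the fitted changes lay on both sides of 0. Ndufb8 (chromosome 1, 264298671 to 264303712), a subunit of the membrane arm often used as a marker of assembled complex I, had 9.30 and 12.5 CPM with DMSO against 6.01 and 2.84 CPM with ATV. The MSCATV-Exo libraries were both lower, with a log2 fold change of -1.30, an SE of 0.77 and an unadjusted p of 0.119 in edgeR's fit. Ndufa8 (chromosome 3, 15362888 to 15379386), which faces the intermembrane space, had 6.08 and 6.90 CPM against 12.9 and 14.5 CPM. Here the replicates of each group lay close together and both MSCATV-Exo libraries were higher, with a log2 fold change of 1.08 and an SE of 0.62 (unadjusted p = 0.109, edgeR). Leaving out any 1 library kept the Ndufa8 value between 0.98 and 1.17. Ndufab1, the mitochondrial acyl carrier protein, had 8.77 and 12.5 CPM against 12.0 and 28.2 CPM, and only MSCATV-Exo replicate 2 stood above the others.

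Ndufs6 had the largest fitted change of all tested members, on few counts. It had 15 and 2 counts with DMSO against 24 and 49 with ATV, and its log2 fold change of 2.08 had an SE of 1.29. Its value was 1.28 without MSC-Exo replicate 2 and 4.08 without MSC-Exo replicate 1. The Ndufs6 row lies on chromosome 2 (26471173 to 26471587) with a length of 351 nt, and 2 other rows described as products of the same gene were at 0 in all 4 libraries. By level, Ndufb10, Ndufv1 and Ndufa6 led complex I. Ndufb10, a membrane-arm subunit, had 27.6, 10.7, 6.40 and 14.4 RPKM in the 4 libraries in the order above, and Ndufa6, which contacts the core near the ubiquinone site, had 12.3, 15.5, 18.5 and 6.22 RPKM. In both genes MSC-Exo and MSCATV-Exo overlapped, and each changed direction when 1 library was left out, Ndufb10 without MSC-Exo replicate 1 (0.0245) and Ndufa6 without replicate 2 of MSC-Exo (0.16) or of MSCATV-Exo (0.58).

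Complex II oxidises succinate and is the only complex of the chain with no mitochondrially encoded subunit. Sdha carries FAD, Sdhb carries the iron-sulfur clusters, and Sdhc and Sdhd anchor them in the membrane. Sdhb had the narrowest range over the 4 libraries of all tested members, with 10.6 and 9.07 CPM with DMSO against 10.6 and 9.57 CPM with ATV. Sdha had 9.66 and 16.9 CPM against 20.4 and 13.3 CPM, and Sdhd had 6.80 and 9.44 CPM against 12.8 and 6.74 CPM, so the groups of both overlapped. Sdhc (chromosome 13, 89498047 to 89518979) had 5.90 and 9.98 CPM against 16.2 and 13.6 CPM, and both libraries with ATV were the higher. Its log2 fold change was 0.91 with an SE of 0.59 and an unadjusted p of 0.154 in edgeR's fit. It was the only one of the 4 genes whose groups did not overlap.

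Complex III passes electrons from ubiquinol to cytochrome c. Its redox-active nuclear members showed no common direction. Cyc1, cytochrome c1, had 10.6 and 11.3 CPM against 15.3 and 11.5 CPM, while Uqcrfs1, the Rieske iron-sulfur protein, had 17.4 and 7.80 CPM against 1.46 and 14.7 CPM. For Uqcrfs1 the replicates with ATV lay farther apart than the group means did. The 2 core proteins lay on opposite sides of 0, Uqcrc1 with 8.05 and 10.2 CPM against 13.1 and 14.7 CPM, and Uqcrc2 with 9.48 and 11.8 CPM against 4.55 and 7.62 CPM. Their log2 fold changes were 0.61 with an SE of 0.57 and -0.80 with an SE of 0.70, and in neither gene did the groups overlap.

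Of the small complex III subunits, Uqcrh and Uqcrb had groups that did not overlap, in opposite directions. Uqcrh, the hinge protein beside cytochrome c1 (chromosome 5, 134919040 to 134927235), had 4.11 and 3.09 CPM with DMSO against 15.8 and 5.67 CPM with ATV. Both MSCATV-Exo libraries were higher, but unequally, and the log2 fold change of 1.57 with an SE of 0.84 (unadjusted p = 0.0877, edgeR) was 0.65 without MSCATV-Exo replicate 1 and 2.13 with replicate 2 of that group left out. Uqcrb had 7.16 and 5.08 CPM against 2.91 and 2.84 CPM, a log2 fold change of -1.09 with an SE of 1.03. The highest levels of the complex were those of Uqcr11, with 12.8, 24.7, 29.0 and 14.0 RPKM, and Uqcrq, with 12.0, 13.1, 19.2 and 11.4 RPKM. In both, MSCATV-Exo replicate 1 was the highest library and replicate 2 was within the MSC-Exo range or below it.

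Complex IV held the member with the smallest p. Cox7c, a small ubiquitous membrane subunit (chromosome 2, 14699878 to 14701903), had 31 and 16 counts with DMSO against 81 and 92 counts with ATV, which are 5.55 and 2.90 CPM against 14.8 and 16.3 CPM. The group means were 4.22 ± 1.87 CPM and 15.5 ± 1.10 CPM (SD, n = 2), and each MSCATV-Exo library was above each MSC-Exo library. The log2 fold change was 1.87 with an SE of 0.67 in edgeR's quasi-likelihood fit (unadjusted p = 0.0179, adjusted p = 1.00), and it stayed between 1.48 and 2.40 with any 1 library left out. Over all alternatives its adjusted p was 0.157 (DESeq2) to 1.00. Cox6c had the most negative change of the complex IV genes with a mean of at least 5 CPM, with 15.7 and 8.89 CPM against 7.29 and 5.32 CPM. Both MSCATV-Exo libraries were lower, with a log2 fold change of -0.97 and an SE of 0.67. Ndufa4, first assigned to complex I and now counted with complex IV, had 6.98 and 5.08 CPM against 4.92 and 1.60 CPM.

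The 3 highest complex IV genes varied between libraries of a group by as much as between groups. Cox8a had 17.7 and 49.0 RPKM with DMSO against 36.3 and 53.4 RPKM with ATV, and its mean of 39.1 RPKM was the highest of all members. Cox6a1 had 29.3 and 29.9 RPKM against 23.6 and 59.2 RPKM, so that only MSCATV-Exo replicate 2 departed from the rest. Cox5b, a subunit on the matrix side, had 26.5 and 3.46 RPKM against 47.7 and 15.1 RPKM. In all of them the groups overlapped, and the log2 fold change of Cox5b, 1.21 with an SE of 0.89, was 0.06 without MSCATV-Exo replicate 1 and 3.28 without MSC-Exo replicate 1.

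By RPKM, the common isoforms of complex IV subunits were above their restricted partners. Cox4i1, the ubiquitous regulatory subunit, had 12.4, 30.0, 21.0 and 24.1 RPKM, and Cox4i2, an isoform of lung and of low oxygen, had 4.61, 8.20, 8.42 and 4.13 RPKM. Cox6a1 likewise exceeded the heart and skeletal muscle isoform Cox6a2, which had 7.85, 9.98, 2.89 and 14.0 RPKM, in every library. Cox7a2 had 10.5, 2.73, 3.86 and 13.1 RPKM against 1.67, 0.772, 0.753 and 0 RPKM for Cox7a1, its heart and skeletal muscle isoform. The common form was the higher of the pair by RPKM in all 4 libraries in each of these cases. By counts this did not hold for Cox7a2, with 27, 7, 11 and 35 against 26, 12, 13 and 0 for Cox7a1. Their lengths are 479 and 2903 nt.

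The same held for Cox7b and Cox8a. Cox7b had 16.7, 5.42, 6.01 and 6.38 RPKM, and the testis isoform Cox7b2 had 0.561, 0.280, 2.78 and 2.15 RPKM from 2, 1, 11 and 8 counts. Cox8a exceeded the muscle isoform Cox8b, at 9.37, 7.61, 0.527 and 11.2 RPKM, and the testis isoform Cox8c, at 3.39, 1.69, 11.3 and 4.54 RPKM, in all 4 libraries. Cox7b2 and Cox8c were higher in both MSCATV-Exo libraries, but on counts too low to be tested for the former and with a log2 fold change of 1.75 and an SE of 1.41 for the latter. The testis isoform Cox6b2 had 1.92, 3.84, 1.73 and 7.03 RPKM. Its common counterpart was present as a row described as similar to Cox6b1, outside the name rule, with 22.8, 18.1, 35.6 and 29.2 RPKM.

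Ndufa4l2, a paralog of Ndufa4 known from low-oxygen responses, was the exception. It had 6.19, 9.18, 11.5 and 2.87 RPKM, and Ndufa4 had 9.29, 6.66, 5.78 and 2.05 RPKM, so the paralog was the higher in all libraries but MSC-Exo replicate 1. Neither passed the test between groups. The restricted isoforms Cox6b2, Cox7a1 and Cox7b2 stood around or below the olfactory receptor median of 2.72 RPKM, and at that level a count need not follow expression of the gene. For Cox6a2, 64.3% to 100% of its gene counts were also counted to a non-coding transcript of the same gene.

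Complex V, ATP synthase, combines the catalytic F1 head with the membrane Fo part and a connecting stalk. The 5 F1 genes had 3 above and 2 below 0 with a median of 0.09, and the 9 tested Fo and stalk genes had 4 above and 5 below with a median of -0.06. Atp5b, the catalytic beta subunit (chromosome 7, 2504708 to 2511748), had the most counts of any member, with 263 and 363 with DMSO against 301 and 371 with ATV. These are 47.1, 65.9, 54.8 and 65.8 CPM, and the group means of 56.5 ± 13.3 and 60.3 ± 7.73 CPM (SD, n = 2) differed by less than the spread within each group. Its log2 fold change was 0.09 with an SE of 0.29, the smallest SE of all tested members. Atp5a1, the alpha subunit, had 24.9 and 17.1 CPM against 33.5 and 19.9 CPM, and its groups also overlapped.

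In the stalk and membrane parts, the groups did not overlap for Atp5o, Atp5g2 and Atp5h. Atp5o, the subunit that links the head to the outer stalk (chromosome 11, 32081606 to 32087918), had 4.65 and 5.26 CPM with DMSO against 9.29 and 13.6 CPM with ATV. Both MSCATV-Exo libraries were higher, with a log2 fold change of 1.21, an SE of 0.71 and an unadjusted p of 0.118 in edgeR's fit. Atp5h, subunit d of the stalk, had 29.3 and 28.7 RPKM against 20.7 and 26.4 RPKM, with a log2 fold change of -0.21 and an SE of 0.45. Atp5e, the epsilon subunit of F1, had 27.1, 28.1, 32.5 and 9.12 RPKM, where MSCATV-Exo replicate 2 alone was low (log2 fold change 0.41 without it and -0.27 with it). The 3 genes that encode the same ring subunit c differed from each other in pattern: Atp5g1 had 4.29 and 11.3 CPM against 1.28 and 10.6 CPM, and Atp5g2 had 5.90 and 13.1 CPM against 16.8 and 14.4 CPM. The third, Atp5g3, had a log2 fold change of -0.06 with an SE of 0.78.

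Among the genes that are not subunits, Ndufaf4, an assembly factor of complex I, had the second-smallest p of all members. It had 14 and 12 counts with DMSO against 63 and 36 with ATV, or 2.50 and 2.18 CPM against 11.5 and 6.38 CPM (chromosome 5, 39251370 to 39256542). Both MSCATV-Exo libraries were higher, with a log2 fold change of 1.92, an SE of 0.92 and an unadjusted p of 0.0629 in edgeR's fit, and 1.44 to 2.29 with any 1 library left out. Ndufaf3, with which it acts in assembly, had 6.26 and 4.17 CPM against 14.4 and 7.80 CPM, a log2 fold change of 1.08 with an SE of 0.73. Atp5sl was the only gene of this group with a value below 0, at 17.4 and 25.8 CPM against 13.5 and 16.3 CPM. The group's level is low: Ndufaf4 had 1.27, 1.09, 5.16 and 3.13 RPKM, on both sides of the olfactory receptor median.

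**Figure D3:**
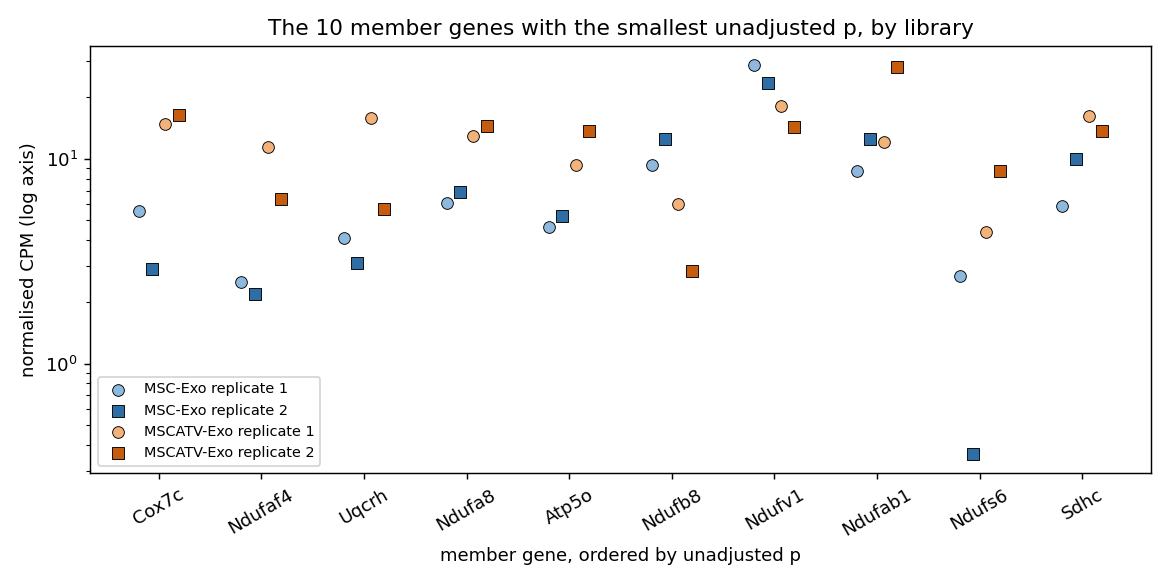
Normalised CPM (log axis) in each library of the 10 members with the smallest unadjusted p in edgeR's test, ordered by p. In 9 of them the groups do not overlap, in Ndufab1 they do, against 36.8% of tested members and 33.5% of all genes tested without overlap. Choosing members by p from the same libraries favours groups that do not overlap, so the 9 are no separate result. Cox7c has 5.55 and 2.90 CPM with DMSO against 14.8 and 16.3 CPM with ATV, and none has an adjusted p under 0.05.

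Replicates of a group differed by about as much as libraries of different groups. Over the 87 tested members, the median difference between MSC-Exo replicates was 1.46-fold and between MSCATV-Exo replicates 1.79-fold. The 4 pairs of libraries across groups had medians of 1.87-, 1.74-, 1.43- and 1.66-fold, and the smallest of all 6, 1.43-fold, was between MSC-Exo replicate 2 and MSCATV-Exo replicate 1. At least 2-fold differences were found in 21 members between MSC-Exo replicates and in 36 between MSCATV-Exo replicates. The exact 95% Poisson intervals of the 2 counts, which cover counting error only, did not touch in 28 of 93 members for MSC-Exo and 45 of 93 for MSCATV-Exo, and in 13 members for both groups. Ndufc2, a membrane-arm subunit of complex I with 15 and 17 counts with DMSO against 73 and 0 with ATV, was the widest case.

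**Figure D4:**
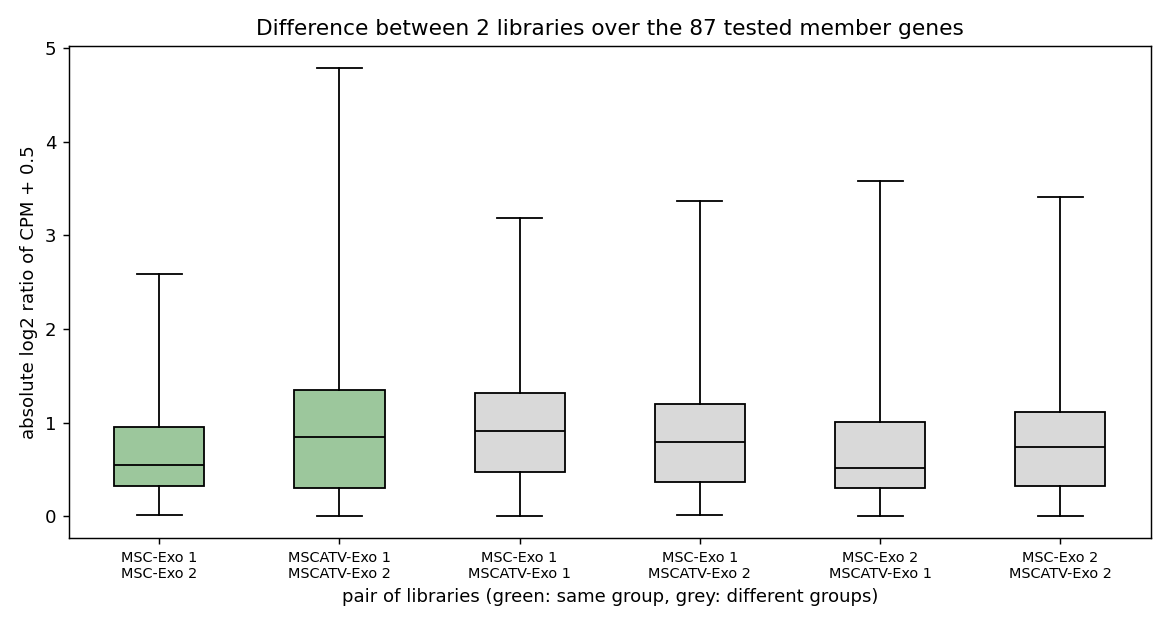
Absolute log2 ratio of CPM + 0.5 between the libraries of each of the 6 pairs over the 87 tested members; boxes are the quartiles with the median as a line, whiskers reach the lowest and highest values, green boxes are pairs within a group and grey boxes pairs across groups. The medians are 0.54 and 0.84 within groups and 0.91, 0.80, 0.52 and 0.74 across groups.

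The precision of single genes rose with their counts, and the part of counting error in it was not tested. The SE of the log2 fold change had a median of 1.29 for the 21 tested members with a mean under 30 counts, 0.76 for the 43 with 30 to under 60 counts, and 0.54 for the 23 with at least 60 counts. Atp5b, with the most counts, had an SE of 0.29. A change of 2-fold, which is 1 on the log2 scale, was smaller than 2 of these median SEs in each range of counts.

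The authors' deposited table gives other calls for the same genes. It lists 90 members and has a q-value under 0.05 for 29 of them (32.2%), against 34.3% of all 38021 genes listed. With such a q-value, 14 of the 90 members were higher in MSCATV-Exo (background 4722 of 38021, 12.4%) and 15 of the 90 lower (background 8331 of 38021, 21.9%). In 21 of the 29 (72.4%) the libraries did not overlap between groups, against 67.3% of all genes with a q-value under 0.05 in the authors' deposited table. The smallest q-value of the authors' deposited table among members was again that of Cox7c, 6.37e-07, followed by Ndufaf4 with 1.10e-04 and Ndufb8 with 2.00e-04. Cox5b, whose libraries overlapped, had a q-value of 4.17e-04 in the authors' deposited table, and Uqcrfs1, with 97 and 43 counts against 8 and 83, had 0.0292. The share of members called there was near the share of all genes.

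Other genes of the pathway also held no call. Of 40 assembly factors listed outside the name rule, 37 were in the table and 36 were tested, with 14 above and 22 below 0 and a median of -0.19. Their smallest p was that of Coa5, a complex IV assembly factor, with 155 and 92 counts against 52 and 61, a log2 fold change of -1.13 and an SE of 0.49 (unadjusted p = 0.0434, edgeR). Sdhaf3, which serves complex II, had 19 and 23 counts against 3 and 0, and Foxred1, which serves complex I, had 165 and 178 against 124 and 122 counts. In these genes, the 3 with the smallest p, both MSCATV-Exo libraries were below both MSC-Exo libraries, and none had an adjusted p under 0.05. Of the 36 tested, 7 were separated downwards and 3 upwards (Nubpl, Ecsit and Ttc19). Together these are 27.8%, against 33.5% of all genes tested, and are no result about the list.

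Of 11 listed carriers and regulators of the chain, 10 were tested, with 7 above and 3 below 0 and a median of 0.32. Slc25a5, an ADP/ATP carrier that exchanges the product of complex V across the inner membrane, had 38 and 64 counts against 88 and 148, a log2 fold change of 1.20 with an SE of 0.53. Dhodh and Gpd2, which feed electrons to ubiquinone from pyrimidine synthesis and glycerol phosphate, had 142 and 132 against 50 and 87 counts and 112 and 114 against 81 and 51 counts. Slc25a5 was separated upwards and the other pair downwards, all with an adjusted p of 1.00 in edgeR's test. The 12 nuclear regulators had 8 above and 4 below 0 with a median of 0.08. Gabpa, a subunit of the factor NRF-2 that acts at many respiratory chain promoters, had 53 and 119 against 28 and 33 counts, a log2 fold change of -1.50 with an SE of 0.66. Nrf1 had 91 and 125 against 119 and 211 counts, and Esrra had 80 and 63 against 168 and 65 counts, and both overlapped. The 70 tested mitochondrial ribosomal protein genes had 34 above and 36 below 0 with a median of -0.01.

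Markers of other cell types were present at varied levels. The median over the leukocyte, muscle and endothelial lists was 5.54, 6.97 and 5.12 RPKM, against 4.76 RPKM for all protein-coding genes. It was 6.44 for adipocyte, 5.57 for hepatocyte, 11.2 for testis, 3.195 for neuron and 2.52 RPKM for erythroid markers. The summed RPKM of 7 leukocyte markers was 45.8 and 35.3 with DMSO against 32.8 and 32.5 with ATV, that of 6 heart and skeletal muscle markers 48.9 and 53.9 against 33.2 and 43.8, and that of 4 endothelial markers 20.1 and 26.6 against 14.9 and 15.4. No marker of these 3 lists was at 0 in any library, and all 3 sums were lower in both MSCATV-Exo libraries. So was the erythroid sum, at 14.2 and 16.4 against 7.97 and 13.3 RPKM. The median of all protein-coding genes was also lower there, at 4.74 and 4.70 against 4.12 and 4.54 RPKM. Single markers went both ways: 2 leukocyte, 1 muscle and 1 endothelial gene had a log2 fold change above 0, and 5, 5 and 3 below. None of them was called. The 11 MSC markers summed to 308 and 338 against 331 and 381 RPKM and the 5 vesicle markers to 38.5 and 37.4 against 39.7 and 51.8 RPKM. The 3 adipocyte, 3 erythroid, 3 hepatocyte, 2 neuron and 2 testis markers were each detected in at least 2 libraries. Sums of 4 of these lists overlapped between groups. The adipocyte sum was 14.5 and 22.6 with DMSO against 13.8 and 16.6 RPKM with ATV. For hepatocyte markers it was 17.7 and 16.4 against 16.7 and 14.4 RPKM. Neuron markers summed to 6.38 and 6.85 against 7.79 and 4.54 RPKM, and testis markers to 7.51 and 35.7 against 18.9 and 27.3 RPKM. The part of these markers in the members' values was not tested.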

How the data were processed

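TopHat2 and the rat build rn6 (Rnor_6.0) are named in the submitters' processing notes. The read counter and annotation release are not given in the sources used here. The authors deposited raw counts per gene and RPKM values, which recompute from the counts, the gene lengths and each library's total of gene counts. The authors' deposited comparison gives mean RPKM per group, their log2 ratio, and a p-value and q-value of an unstated test. The library kit does not mark strand, so overlapping antisense reads cannot be told apart.

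All 4 libraries were compared with edgeR 4.0.16 in R 4.3.3 on the deposited counts (genes kept by filterByExpr, scaling by TMM, the two-sided quasi-likelihood test, an adjusted p under 0.05 by Benjamini-Hochberg over 33480 genes). The SE is the absolute log2 fold change divided by the square root of F. Alternatives were DESeq2 1.42.0, RLE factors, library totals, other filters, the replicate block, leaving out each library and limma 3.58.1 on log2 RPKM, and, chosen after seeing the data, only genes above 3 times the olfactory receptor median. A count of 0 allows 3 counts, or 0.504 to 0.561 CPM. Named members are the 3 highest of each complex, the 10 smallest p-values, the restricted isoforms, those at 0 in all libraries and the 2 largest changes each way among members of at least 5 CPM; of each pathway list, the 3 smallest p-values. Further members were named for their roles within each complex, after their values were seen. The members and lists were chosen with earlier results of these data known. Gene names and rat coordinates are those of the deposited tables, and sequences are not used here. Some single values are not reported here.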

Additional observations from a re-analysis of the deposited data

How the results depend on the processing

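The number of members called was 0 under all 14 alternatives. With the replicate number as a block, the members' median log2 fold change was 0.21, with 0 members called. That block is no term of the reported fit, since no label ties same-numbered libraries to a shared culture and their deviations from the group means had a correlation of -0.000516 over all tested genes. Of the recomputed fold changes of named members, 37 had the opposite sign and 372 did not; none was called. Over the whole table the number of genes called, 0 in the reported fit, was 106 with DESeq2 and 8 with no filter on low counts. It was 4 with the replicate block and 1 with only genes above 3 times the olfactory receptor median. Whole-table calls of the fits without 1 library are not given, as they rest on a lone sample in a group.

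With 1 library left out, the medians ranged from 0.086 to 0.36 for all members, from -0.14 to 0.18 for complex I, -0.0166 to 0.66 for complex II, -0.0072 to 0.53 for complex III, -0.22 to 0.36 for complex IV, -0.19 to 0.56 for complex V and 0.0897 to 0.70 for the genes that are not subunits. In limma on log2(RPKM + 0.1), complex I had a median of -0.23. For the genes that are not subunits, the median was 0.44 with no filter on low counts, 0.26 in limma on log2(RPKM + 1) with and without the filter, 0.34 in limma on log2(RPKM + 0.1), and -0.62 with only genes above 3 times the olfactory receptor median, where 1 gene was left. The median level of complex IV in MSCATV-Exo, 8.16 RPKM over 20 genes, was 10.7 RPKM over those with a mean of at least 1 RPKM.

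Of single genes, Sdhb was -0.0714 with library totals, -0.0597, -0.0646 and -0.0597 in the limma fits (pseudocounts 1, 0.1 and 1 with no filter) and -0.0685 with only genes above 3 times the olfactory receptor median. Atp5b was -0.0023 with library totals. Cox4i2 was -0.03 with library totals and -0.0474, -0.0586 and -0.0474 in the limma fits, and Ndufa4l2 was -0.10 with library totals, -0.26 with the replicate block and -0.30, -0.38 and -0.30 in the limma fits. Leaving out 1 library gave ranges that cross 0 for Ndufb10 (-1.40 to 0.0245), Ndufa6 (-1.12 to 0.58), Sdhb (-0.0682 to 0.14), Sdhd (-0.27 to 0.65), Uqcr11 (-0.39 to 0.88), Uqcrq (-0.0942 to 0.79), Cox8a (-0.0543 to 1.44), Cox6a1 (-0.16 to 1.04), Atp5b (-0.14 to 0.36), Atp5e (-1.55 to 0.41), Cox4i2 (-0.59 to 0.58), Cox6a2 (-1.45 to 0.69), Cox6b2 (-0.56 to 1.31), Cox8b (-3.68 to 0.44) and Ndufa4l2 (-1.38 to 0.74). The causes were not tested. A fit without 1 library assumes that the lone sample varies like the other group.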

Other observations

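Several respiratory chain products are listed in rows outside the name rule, chosen here after their values were seen. The pseudogene row Ndufs5-ps1 (chromosome 14, 114029046 to 114047618, a length of 18573 nt) held 51878 and 46123 counts with DMSO against 49272 and 48925 with ATV, or 0.829% to 0.970% of all gene counts, more than all 93 members together. The parent gene Ndufs5, a subunit of complex I, had 50, 45, 15 and 55 counts. The pseudogene's log2 fold change was -0.002 with an SE of 0.07 in edgeR's fit, while the authors' deposited table gives it a q-value of 9.78e-28. Which sequence within that row drew the reads was not tested.

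A row described as Ndufa12-like, LOC100910710 (chromosome 6, 19299774 to 19301148), had 46 and 35 counts with DMSO against 0 and 0 with ATV. With 3 counts over both of those libraries as the limit that a count of 0 allows, the observed level with DMSO was 27.1-fold above that limit. The counting error of the DMSO counts themselves is not included. That limit does not cover the spread between libraries. DESeq2 gave an adjusted p of 0.0122, and edgeR's quasi-likelihood test an unadjusted p of 0.00190 and an adjusted p of 1.00. Ndufa12 itself, an accessory subunit of complex I, had 22, 39, 27 and 28 counts.

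Ndufa1 and Atp5f1, at 0 in all 4 libraries, each have a second row described with the same product, LOC108348144 and LOC100911417, and both of these were at 0 too. The row described as Ndufa13-like, LOC100911483, had 58, 70, 87 and 40 counts, while the pseudogene row named Ndufa13 had 53, 0, 38 and 0. All counts of Ndufc1 (8, 7, 12 and 28) were also counted to a non-coding transcript of the gene. The other 126 rows described as pseudogenes of these subunits held 2628, 2112, 2165 and 2486 counts, with median levels of 3.25, 2.65, 2.22 and 3.00 RPKM, near the olfactory receptor genes. Reads of members and of their near-identical copies can be assigned to either, so single members with such copies are uncertain.

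On the mitochondrial chromosome the table held 22 tRNA and 2 rRNA rows. The rRNA rows Rnr1 and Rnr2 together had 27, 24, 32 and 21 counts.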
